A study of Mus musculus with 4 samples.

Results

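The genes of complement and of blood coagulation were examined in mouse liver, 48 listed by name, of which 44 had an array row annotated with exactly 1 gene symbol: 21 of 23 for complement and 23 of 25 for coagulation, among 19938 genes measured in all. C3, Cfd, Klkb1 and Cpb2 had no such row and were not analysed here. The members were taken by symbol with no filter on their values, though earlier results of these data were known when they were listed. Where a gene had more than 1 row, as Fga did among the members, its brightest row on average was used.

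Livers came from mice labelled male and 8 weeks old, of 4 genotypes: WT (wildtype), MDR2-/- (MDR2 knock-out), GHR-/- (GHR knock-out) and GHR-/-MDR2-/-, here called the double knock-out. MDR2 is the protein of Abcb4, the transporter that carries phosphatidylcholine into bile, and mice lacking it become cholestatic and fibrotic. GHR is the growth hormone receptor, and its loss makes the liver resistant to growth hormone. Each genotype was 1 whole-transcript array of RNA pooled from 3 livers, so the 4 arrays hold no replicate of any genotype. The labels give no strain and no detail of either allele. The title of the series sets out the link between resistance to growth hormone and fibrosis in cholestasis.

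Complement is a cascade of blood proteins, most of them made by hepatocytes, that marks and kills microbes and damaged cells. It starts on antibody (the classical pathway, through C1q), on sugars (the lectin pathway, through the mannose-binding lectins) or spontaneously (the alternative pathway), and ends in the membrane attack complex, the pore assembled by the terminal components. Coagulation turns fibrinogen into fibrin through thrombin. It is triggered by tissue factor or by the contact system, restrained by anticoagulant proteins and undone by plasmin. Hepatocytes make most clotting factors too, while macrophages make C1q and properdin.

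Values are array intensities on a linear scale, and differences are log2 ratios between single pools. A member was counted as higher or lower where the ratio was at least 1.5-fold and the brighter of both pools had an intensity of 100 or more, the median of all rows with 1 symbol. Signal below 100 may be background, which makes a ratio against it inexact. The spread taken for a single pairwise difference was 0.23 (log2), a typical value rather than the error of any given gene. It was rescaled from 0.33, the robust SD of the departure from additivity over the 4 arrays, for all genes passing the filter. It is thus not the spread of any given comparison. The 4 single-loss comparisons were MDR2-/- against WT, GHR-/- against WT, and the double knock-out against each single knock-out. The only test was limma (linear model with moderated variance) with additive terms for loss of GHR and of MDR2 over the 4 arrays, with Benjamini-Hochberg adjustment over 10764 genes and a threshold of 0.05. Its error is the departure from additivity, with 1 residual degree of freedom per gene, moderated over all genes. Its p-values thus set an effect against that departure and measure no spread among pools of a genotype or among animals.

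Median intensity was 94 to 105 over the 4 arrays. Ghr was 4944 in the WT and 4485 in the MDR2-/- pool, against 1395 in the GHR-/- and 935 in the double knock-out pool. Abcb4 was 1120 in the WT and 1346 in the GHR-/- pool, against 663 and 689 in the MDR2-/- and double knock-out pools. Probe positions relative to the deleted parts are not known here, so both genes check the labels in part. Xist, the RNA of the inactive X chromosome of female cells, was 1400 in the GHR-/- pool, labelled male, and 16 to 18 in the other 3. The Y-linked Eif2s3y was 680 in that pool and 840 to 951 in the others. For GHR loss, the comparison of the double knock-out with the MDR2-/- pool, where Xist was 17 and 18, is given as well. The part of the Xist difference in any value was not tested. The liver label was borne out by 16 hepatocyte markers, whose summed intensity was 141336 to 147960 in the 4 pools, with Alb at 13255 to 15283. All 9 neutrophil markers lay under 100 in every pool.

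Of the 5 listed terminal components of complement, which build the membrane attack complex, C6, C8a, C8b and C9 stood lower with loss of GHR in both backgrounds. C6, which joins C5b in the first step of the complex, had an intensity of 2597 in the WT, 4355 in the MDR2-/-, 385 in the GHR-/- and 860 in the double knock-out pool. The 2 pools without GHR were thus the 2 low ones, and in each background MDR2 loss went with a higher level. C6 was 6.75-fold lower in the GHR-/- than in the WT pool and 5.06-fold lower in the double knock-out than in the MDR2-/- pool. The average effect of GHR loss was -2.55 (SE 0.16, log2, limma adjusted p = 0.00793), and that of MDR2 loss was 0.95 (SE 0.16, limma adjusted p = 0.0482). C8a, the chain of C8 that enters the membrane, was 3984, 4602, 713 and 1310 in the WT, MDR2-/-, GHR-/- and double knock-out pools. Again the pools without GHR were the low ones, with an average effect of GHR loss of -2.15 (SE 0.20, limma adjusted p = 0.0275). C8b, the beta chain, was 5285, 4768, 1869 and 2217 in the same order of pools, with an average effect of -1.30 (SE 0.16) that missed the threshold (limma adjusted p = 0.055) and passed it with the mean of rows and with trend and robust settings. C9, which polymerises into the pore, was 4715, 5115, 1690 and 2820, 2.79-fold lower in the GHR-/- than in the WT pool and 1.81-fold lower in the double knock-out than in the MDR2-/- pool, with an average effect of -1.17 (SE 0.19, limma adjusted p = 0.117).

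C8g, the gamma chain, which belongs to the lipocalins and is not related to the other C8 chains, did not share this order of pools. Its intensity was 6351, 5129 and 6095 in the WT, MDR2-/- and GHR-/- pools and 2792 in the double knock-out pool. It was low in the pool that lacked both genes, 1.84-fold below the MDR2-/- and 2.18-fold below the GHR-/- pool, while the GHR-/- and WT pools differed by 1.04-fold. In the GHR-/- against WT comparison 4 of 5 terminal components were lower, and in the double knock-out against MDR2-/- comparison all 5 were. Over all genes passing the filter, 2.47% and 3.88% were lower in these comparisons. Lower by at least 1.5-fold in both were 4 of 20 complement members that passed the filter (C6, C8a, C8b and C9), against 1.22% of 9812 genes, and 1 (C3ar1) was higher in both, against 1.36%. Among 10052 genes ranked from the lowest GHR-/- against WT difference, C6 was at rank 14, C8a at 20, C8b at 52 and C9 at 53. Among 10524 genes ranked from the lowest double knock-out against MDR2-/- difference, C6 was at rank 40, C8a at 61, C8b at 149 and C9 at 216.

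**Figure D1:**
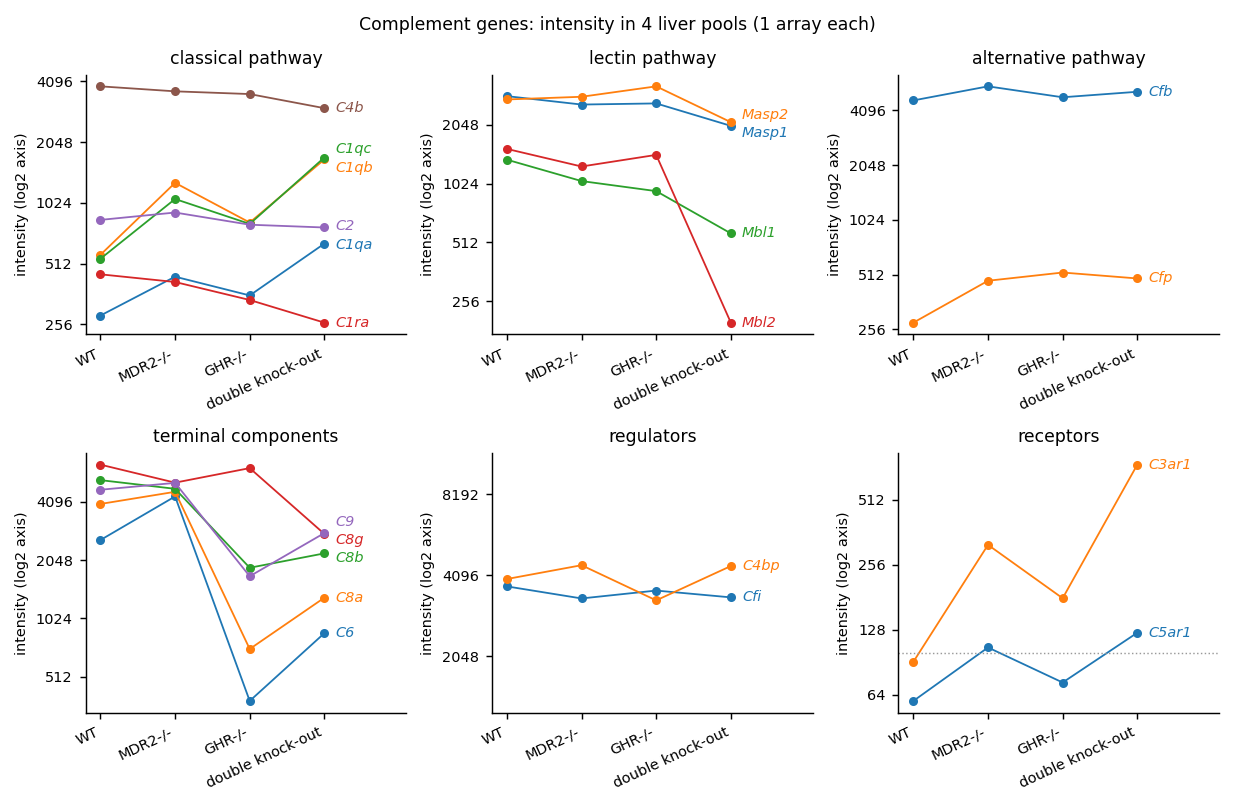
Intensity (log2 axis) of 21 complement genes in the WT, MDR2-/-, GHR-/- and double knock-out pools, 1 array each, in 6 panels by role. Each line joins the 4 values of a gene and implies no order of genotypes, and the dotted line marks an intensity of 100. C6, C8a, C8b and C9 are low in both pools without GHR, whereas Mbl2 and C8g are low in the double knock-out pool.

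C6 and C9 lie on chromosome 15 near the targeted gene: in the RefSeq order of assembly GRCm38.p6, C6 is measured gene 5 and C9 measured gene 13 from Ghr. Of 22 measured neighbours, 2 on one side and 20 on the other, 14 passed the filter between the GHR-/- and WT pools. Their median difference was 0.10, against 0.10 over all genes passing it. C6 and C9 were the 2 lower ones and Fyb the higher one (2.47% and 4.22% of all genes). Fyb, at 96 in the WT and 150 in the GHR-/- pool, passed only through the pool where it was high. Between the double knock-out and MDR2-/- pools 16 neighbours passed, with C6, C9 and Lifr lower and C7 and Osmr higher (3.88% and 7.11% of all genes). C7, the terminal component encoded between them at measured gene 7 from Ghr, was 62, 107, 68 and 218 in the WT, MDR2-/-, GHR-/- and double knock-out pools. It was thus highest in the double knock-out pool, unlike C6 and C9. Whether their place near Ghr had a part in the C6 and C9 levels was not tested. C8a and C8b are direct neighbours of each other on chromosome 4, away from Ghr. With C6 and C9 left out, 2 of 18 complement members were higher and 2 (C8a and C8b) lower in the GHR-/- than in the WT pool. Over all genes 4.22% were higher and 2.47% lower. Of the 2 higher members, C3ar1 passed the filter only through the GHR-/- pool, where it was high.

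**Figure D2:**
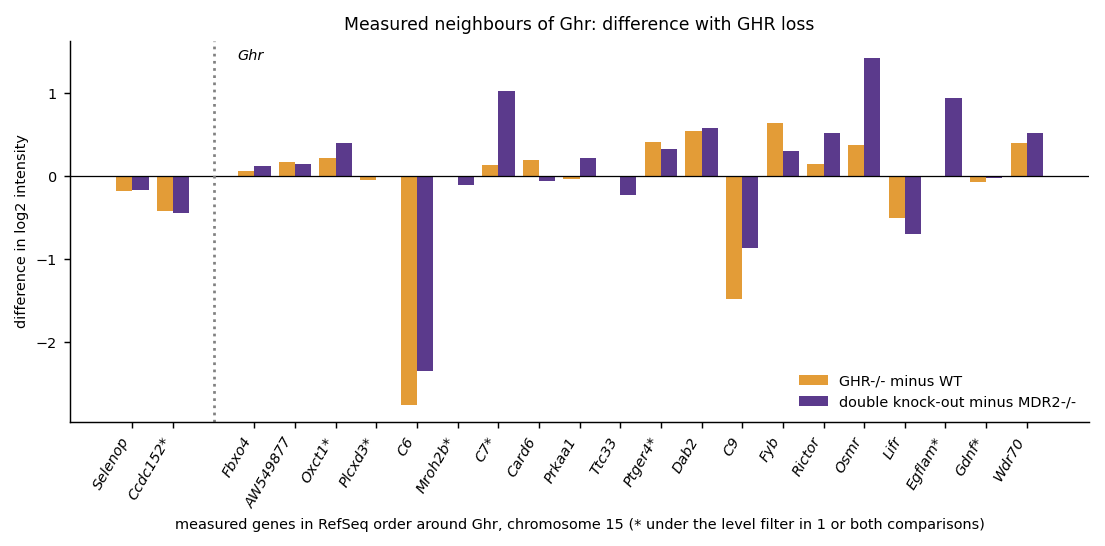
Difference in log2 intensity for 22 measured neighbours of Ghr in RefSeq gene order, GHR-/- minus WT (orange) and double knock-out minus MDR2-/- (purple). Asterisks mark genes under the level filter in 1 or both comparisons. C6 and C9 have the lowest bars in both comparisons, with genes near 0 or above it between them.

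The start regions of the terminal components are shown because 4 of these genes were low in the same 2 pools while C8g was not, and that of Mbl2 because this gene was low in the double knock-out pool alone. They are RefSeq sequences of build GRCm38.p6, from 250 bases before the start to 50 after it, at chr15:4726960-4727259 (plus strand), chr4:104876349-104876648 (minus strand), chr4:104766067-104766366 (plus strand), chr15:6445096-6445395 (plus strand), chr2:25501670-25501969 (minus strand) and chr19:30232678-30232977 (plus strand), in the order printed. Capitals mark matches on either strand to the letters searched.
C6: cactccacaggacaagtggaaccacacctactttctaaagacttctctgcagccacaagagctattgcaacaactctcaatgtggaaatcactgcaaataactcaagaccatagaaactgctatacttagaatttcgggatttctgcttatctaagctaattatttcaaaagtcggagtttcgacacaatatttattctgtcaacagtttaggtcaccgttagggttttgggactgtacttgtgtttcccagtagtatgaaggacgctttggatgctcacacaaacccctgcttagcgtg
C8a: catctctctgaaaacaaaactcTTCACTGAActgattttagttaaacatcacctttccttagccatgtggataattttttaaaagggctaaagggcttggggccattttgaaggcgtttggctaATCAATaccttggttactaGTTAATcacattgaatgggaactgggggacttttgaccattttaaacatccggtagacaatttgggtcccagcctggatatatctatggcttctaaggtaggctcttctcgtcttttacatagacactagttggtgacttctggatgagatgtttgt
C8b: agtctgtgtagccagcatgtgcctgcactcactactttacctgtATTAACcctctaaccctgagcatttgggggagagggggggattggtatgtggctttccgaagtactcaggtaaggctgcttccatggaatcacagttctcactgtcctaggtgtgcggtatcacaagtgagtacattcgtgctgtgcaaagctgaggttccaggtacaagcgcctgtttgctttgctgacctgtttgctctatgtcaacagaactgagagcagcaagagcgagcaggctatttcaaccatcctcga
C9: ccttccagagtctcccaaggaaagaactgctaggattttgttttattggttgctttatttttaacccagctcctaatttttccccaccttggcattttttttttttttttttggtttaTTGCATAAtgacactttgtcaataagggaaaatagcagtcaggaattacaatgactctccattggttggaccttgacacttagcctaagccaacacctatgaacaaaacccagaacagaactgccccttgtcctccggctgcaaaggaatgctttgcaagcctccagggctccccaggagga
C8g: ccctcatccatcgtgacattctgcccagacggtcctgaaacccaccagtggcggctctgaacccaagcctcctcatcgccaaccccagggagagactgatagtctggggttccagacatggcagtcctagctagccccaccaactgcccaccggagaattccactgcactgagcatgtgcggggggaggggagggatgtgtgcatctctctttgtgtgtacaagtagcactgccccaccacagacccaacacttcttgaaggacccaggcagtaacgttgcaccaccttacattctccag
Mbl2: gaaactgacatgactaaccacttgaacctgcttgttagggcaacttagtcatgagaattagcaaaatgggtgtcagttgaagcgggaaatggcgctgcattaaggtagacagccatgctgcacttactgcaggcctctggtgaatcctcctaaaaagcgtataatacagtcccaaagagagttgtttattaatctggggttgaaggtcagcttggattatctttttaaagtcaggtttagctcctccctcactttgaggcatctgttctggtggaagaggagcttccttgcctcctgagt

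The letters searched were TTCNNNGAA (the spacing bound by STAT5, which carries the growth hormone signal), GTTAAT (a core of HNF1 sites), CAAAGTCCA (HNF4), TTGCNNAA (C/EBP) and ATTGAT (Onecut factors), and no matches of different motifs overlapped in the printed regions. The C8a region holds a STAT5, an Onecut and an HNF1 match, the C8b region an HNF1 match, and the C9 region a C/EBP match. No match lies in the windows of C6, C8g and Mbl2. No searched motif was thus held by all 4 genes that were low in the same pools. Over the 32 members with a RefSeq start region, 10 held GTTAAT, 7 held TTGCNNAA, 6 held TTCNNNGAA, 4 held ATTGAT and 0 held CAAAGTCCA. Of all 27025 regions of this length, 7.2%, 10.8%, 8.47%, 7.76% and 0.477% held the same letters, in that order. These are descriptions of letters, not of bound sites. Onecut1 itself was 1150, 436, 248 and 218 in the WT, MDR2-/-, GHR-/- and double knock-out pools, and its part in any member's level was not tested. It was named after its values were seen. Its GHR-/- against WT difference of -2.21 was the lowest of 19 listed liver transcription factors, of which the highest was 1.45. Of 17 passing the filter there, 3 were higher and 2 lower (4.22% and 2.47% of all genes).

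The mannose-binding lectins, which recognise sugars on microbes and start the lectin pathway, were lowest in the double knock-out pool. Mbl2 had an intensity of 1543 in the WT, 1254 in the MDR2-/- and 1438 in the GHR-/- pool, and 199 in the double knock-out pool. The first 3 pools lay within 1.23-fold of each other and the double knock-out pool stood apart, 6.30-fold below the MDR2-/- and 7.23-fold below the GHR-/- pool. Its non-additivity, the difference with GHR loss in the MDR2-/- background minus that in the WT background, was -2.55 on the log2 scale, against a robust SD of 0.33 over all genes. The additive model takes each effect as equal in both backgrounds, and limma called neither effect for Mbl2 (adjusted p = 0.394 for GHR loss and 0.182 for MDR2 loss). Mbl1, the other lectin, was 1359, 1056, 938 and 570 in the WT, MDR2-/-, GHR-/- and double knock-out pools. It stepped down with each loss, with a non-additivity of -0.35 and an average effect of GHR loss of -0.71 (SE 0.16, limma adjusted p = 0.20). Masp1, a protease that the lectins activate, was 2025 in the double knock-out pool and 2603 to 2874 elsewhere. Masp2, the other such protease, was 2764, 2853, 3226 and 2115 in the WT, MDR2-/-, GHR-/- and double knock-out pools. It was 1.35-fold lower in the double knock-out than in the MDR2-/- pool and 1.53-fold lower than in the GHR-/- pool, and the latter ratio fell under 1.5-fold with cyclic loess, median centring and hepatocyte centring.

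The C1q chains, which bind antibody and dying cells and open the classical pathway, were higher with loss of MDR2 in both backgrounds and highest in the double knock-out pool. With C3ar1, C5ar1 and C6 they made 6 of 21 members at least 1.5-fold higher in both, against 4.57% of 10008 genes. C5ar1 passed the filter in both comparisons only through the pool without MDR2, and C3ar1 did so in MDR2-/- against WT. Both were high there, so their place in this count supports nothing. C1qa was 283, 441, 356 and 643 in the WT, MDR2-/-, GHR-/- and double knock-out pools. C1qb was 566, 1287, 818 and 1680, and C1qc was 541, 1070, 805 and 1718, in the same order. All 3 chains thus kept the same order of pools. The average effect of MDR2 loss was 0.75 for C1qa (SE 0.14, limma adjusted p = 0.0576), 1.11 for C1qb (SE 0.14, limma adjusted p = 0.0293) and 1.04 for C1qc (SE 0.14, limma adjusted p = 0.0324). For GHR loss it was 0.44, 0.46 and 0.63 (limma adjusted p = 0.324, 0.297 and 0.20). The other classical members, made largely by hepatocytes, had other orders of pools. C1ra, a protease of the C1 complex, was 453, 415, 338 and 261, 1.59-fold lower in the double knock-out than in the MDR2-/- pool. C2 and C4b, which form the enzyme that cleaves C3, stayed under 1.5-fold in all 4 single-loss comparisons, at 773 to 917 and 3017 to 3870. C4b has a near-identical neighbour, C4a, and probes may not separate them.

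The receptors for the released fragments of C3 and C5 had the same order of pools as C1q. C3ar1, the C3a receptor of myeloid cells, was 91 in the WT, 316 in the MDR2-/-, 179 in the GHR-/- and 742 in the double knock-out pool. Every pool with a loss was above WT, and the double knock-out pool was highest. The average effect was 1.92 for MDR2 loss (SE 0.15, limma adjusted p = 0.0169) and 1.1 for GHR loss (SE 0.15, limma adjusted p = 0.0703). C5ar1, the C5a receptor, was 60, 106, 73 and 124. It passed the filter only through the pools without MDR2, where it was high, so its call by limma supports nothing. Cfp, properdin, which stabilises the alternative pathway enzyme, was 279 in the WT pool and 474, 526 and 488 in the MDR2-/-, GHR-/- and double knock-out pools. It was higher with either loss and no higher with both, a non-additivity of -0.87.

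Macrophage markers also differed between the pools. The summed intensity of 18 such markers was 5562 in the WT, 14258 in the MDR2-/-, 7707 in the GHR-/- and 18880 in the double knock-out pool, the same order of pools as for C1qa, C1qb, C1qc, C3ar1 and C5ar1. Of 17 passing the filter, 12 were higher and 0 lower in the MDR2-/- than in the WT pool (6.05% and 3.57% of all genes). Differences over all 18 ran from -0.41 to 2.68. In the double knock-out against the GHR-/- pool 12 of 17 were higher and 2 lower (9.92% and 9.89%). Between the GHR-/- and WT pools 13 passed, so some of the 17 passed only through the pool without MDR2, where they were higher. The place of those markers in the counts supports nothing. Their part in the C1q and receptor values was not tested, and in bulk tissue more cells of a type and more RNA per cell cannot be told apart. Without the 6 members made mainly by macrophages (C1qa, C1qb, C1qc, C5ar1, C3ar1 and Cfp), 1 of 15 complement members, C6, was higher in the MDR2-/- than in the WT pool. That is near the share over all genes, 6.05%.

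Cfb, the protease of the alternative pathway, and the regulators Cfi and C4bp differed little between pools. Cfb ranged from 4642 to 5547, Cfi, which cleaves active C3b and C4b, from 3360 to 3724, and C4bp, a cofactor of Cfi, from 3305 to 4462. With C2, C4b and Masp1 these were the 6 complement members that stayed under 1.5-fold in all 4 single-loss comparisons, with differences from -0.38 to 0.42.

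Counted together, 7 of 21 complement members were higher and 0 lower in the MDR2-/- than in the WT pool, where 6.05% of all genes were higher and 3.57% lower. C3ar1 and C5ar1 passed the filter there through the higher pool alone. The same holds for C3ar1 in GHR-/- against WT and for C5ar1 in the double knock-out against GHR-/-. It also holds for both in the double knock-out against WT. In the GHR-/- against the WT pool 2 of 20 were higher and 4 lower (4.22% and 2.47% of all genes). In the double knock-out against the MDR2-/- pool 2 of 21 were higher and 8 lower (7.11% and 3.88%). In the double knock-out against the GHR-/- pool 8 were higher and 4 lower (9.92% and 9.89%). The median difference was 0.12, -0.08, -0.28 and 0.10 in these comparisons, against -0.04, 0.10, 0.06 and -0.06 over all genes passing the filter. Between the double knock-out and WT pools, 6 were higher and 8 lower (13.7% and 7.57%), with a median of -0.36. Limma called C6 and C8a lower with GHR loss (0.316% of all genes were called lower), and C1qb, C1qc, C3ar1, C5ar1 and C6 higher with MDR2 loss (2.99% called higher), with 0 members lower (0.762%). With no filter limma called 0 complement members for either loss, and with hepatocyte centring C6 alone for GHR loss and 0 for MDR2 loss, while cyclic loess and median centring each ended the calls of C6 and C5ar1 for MDR2 loss. The filter at an intensity of 329 left C3ar1 alone for MDR2 loss, and C3ar1 reached 329 only in the double knock-out pool, where it was high. Trend and robust settings lost C5ar1 and called C1qa.

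**Figure D3:**
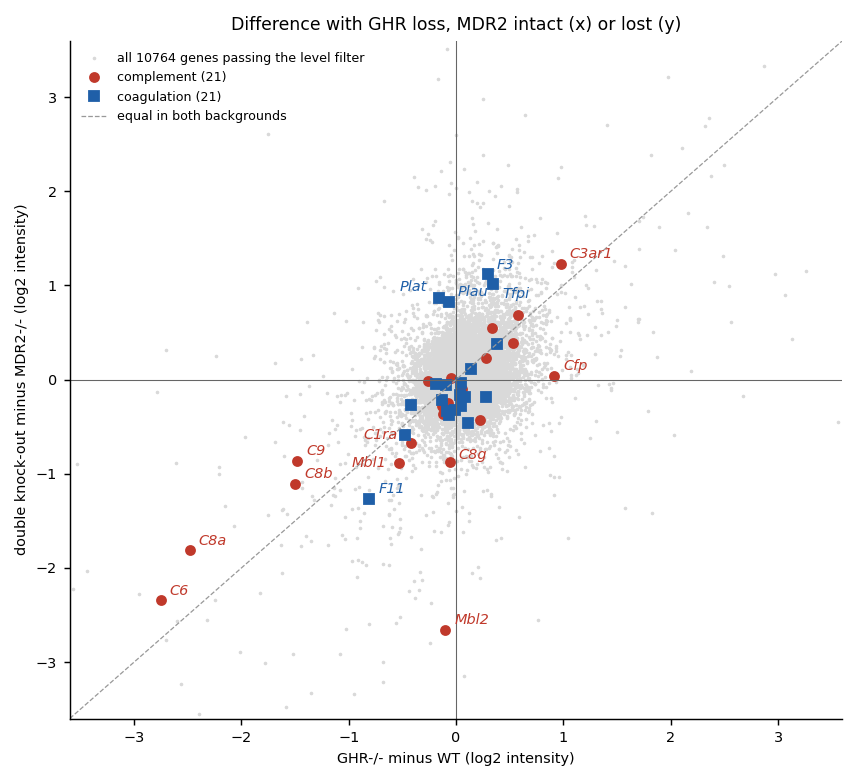
Difference in log2 intensity with GHR loss in the WT background (x axis) and in the MDR2-/- background (y axis), for 21 complement genes (red circles), 21 coagulation genes (blue squares) and all 10764 genes passing the filter (grey), of which 27 lie outside the axes. The axes share no array. C6, C8a, C8b and C9 lie low on both axes, Mbl2 and C8g low on the y axis alone, and most coagulation genes near 0.

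Most coagulation genes differed little between the pools. Of 23 measured members, 16 stayed under the 1.5-fold count in all 4 single-loss comparisons, 2 of them (F13a1 and Plaur) because they lay under an intensity of 100 in every pool. F13a1, the enzyme chain of factor XIII that cross-links fibrin, was 32 to 54. The other 14 of the 16 had differences from -0.55 to 0.48. They held the main products of the hepatocyte for clotting. F2, prothrombin, ranged from 5836 to 7091. Fgb and Fgg, fibrinogen chains, ranged from 10055 to 11454 and from 9631 to 12231. Plg, plasminogen, ranged from 7111 to 8990. F5, the cofactor of activated factor X, was 2697 to 2996, and Kng1, kininogen, was 10206 to 11324. Each of these 6 stayed within 1.27-fold between any 2 pools.

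F11, factor XI of the contact pathway, stepped down with each loss. Its intensity was 1268 in the WT, 783 in the MDR2-/-, 724 in the GHR-/- and 326 in the double knock-out pool. It was the one coagulation member at least 1.5-fold lower with GHR loss in both backgrounds, by 1.75-fold and 2.40-fold, and the one lower with MDR2 loss in both, by 1.62-fold and 2.22-fold. Over all genes 1.22% and 1.95% did so. The average effects of -1.04 for GHR loss and -0.92 for MDR2 loss (SE 0.17 each) missed the threshold (limma adjusted p = 0.117 and 0.0527), and that of MDR2 loss passed it with the mean of rows and with trend and robust settings. F9, factor IX, was 1848, 1828, 1331 and 1213 in the WT, MDR2-/-, GHR-/- and double knock-out pools, and so lower in both pools without GHR. The ratio was 1.39-fold in the WT and 1.51-fold in the MDR2-/- background. F7, factor VII, was 1367, 1099, 1472 and 800, 1.37-fold lower in the double knock-out than in the MDR2-/- pool and 1.84-fold lower than in the GHR-/- pool. Fga, the alpha chain of fibrinogen, was 4279, 2917, 3196 and 2424. It was highest in the WT pool, and its other row, at 2016, 1215, 1327 and 999, gave the same order with larger ratios. The row used was 1.47-fold lower in the MDR2-/- and 1.34-fold lower in the GHR-/- than in the WT pool, and the other row 1.66-fold and 1.52-fold lower, past the count.

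Several further factors made by the hepatocyte were lowest in the double knock-out pool by small ratios. F10, factor X, was 1948 there and 2369 to 2773 elsewhere. Proc, protein C, which inactivates factors V and VIII, was 1937 there and 2421 to 2757 elsewhere. Proz, protein Z, was 1581 and 1798 to 1983, and F12, factor XII, was 2097 and 2723 to 2884. F13b, the carrier chain of factor XIII, was 1372 and 1728 to 2015. None of these ratios reached 1.5-fold in a single-loss comparison. F8, factor VIII, which in liver is made by endothelial cells, was 499, 476, 607 and 418 in the WT, MDR2-/-, GHR-/- and double knock-out pools. The summed intensity of 16 endothelial markers was 7834, 8157, 9704 and 7682 in the same order, highest in the same pool as F8, and its part in the F8 values was not tested.

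**Figure D4:**
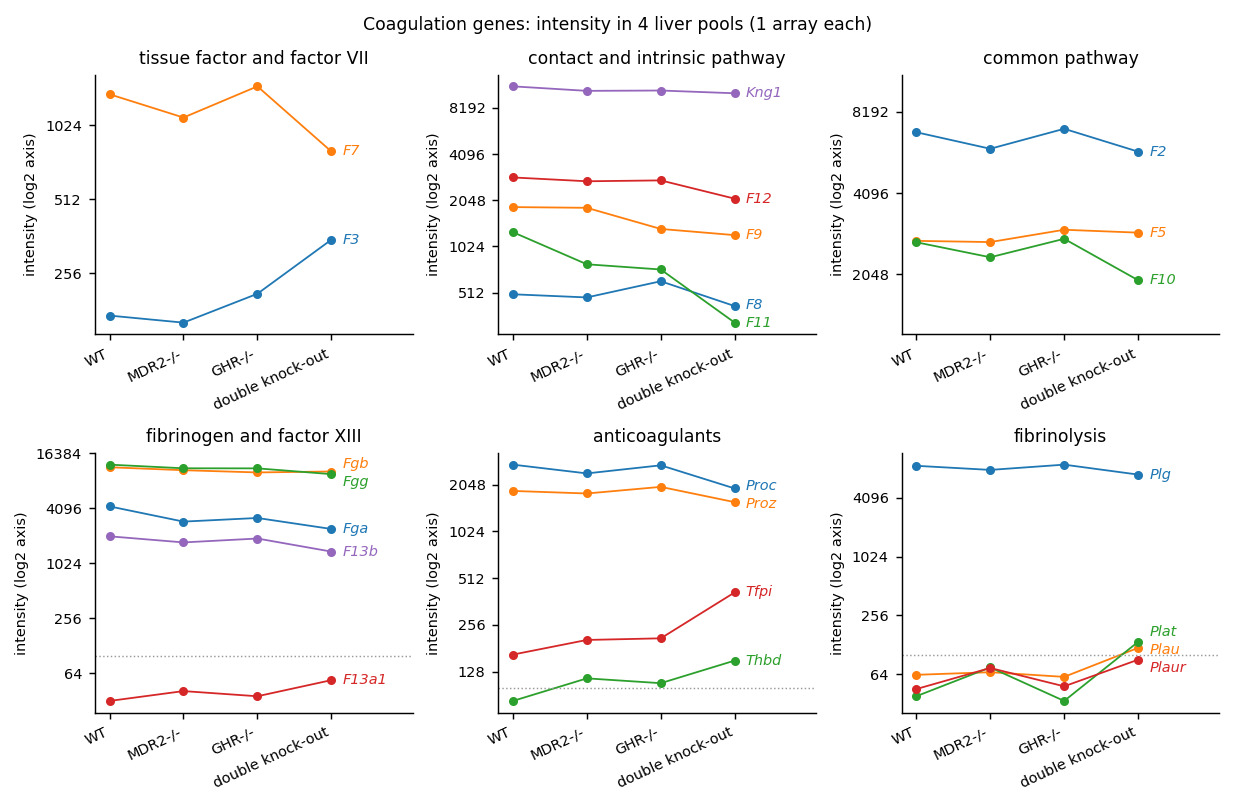
Intensity (log2 axis) of 23 coagulation genes in the WT, MDR2-/-, GHR-/- and double knock-out pools, 1 array each, in 6 panels by role. Each line joins the 4 values of a gene and implies no order of genotypes, and the dotted line marks an intensity of 100. F11 is lowest and F3, Tfpi and Plat are highest in the double knock-out pool, and most other genes are nearly level.

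The trigger of coagulation, its inhibitor and the plasminogen activators were highest in the double knock-out pool. F3, tissue factor, was 172, 161, 211 and 350 in the WT, MDR2-/-, GHR-/- and double knock-out pools, 2.17-fold higher in the double knock-out than in the MDR2-/- pool. Tfpi, the inhibitor of tissue factor, was 165, 205, 210 and 415 in the same order, 2.02-fold higher in that comparison. Both genes thus stood apart in the double knock-out pool, with non-additivities of 0.83 and 0.67. Plat, tissue plasminogen activator, was 38, 75, 34 and 137 in the same order. Plau, urokinase, was 63, 67, 60 and 119, and Plaur, its receptor, 45, 74, 48 and 90. Thbd, thrombomodulin, an endothelial cofactor of protein C activation, was 83, 116, 108 and 151. Plat and Plau passed the filter only through the double knock-out pool, where they were high, so that their ratios and limma's call of Plat support nothing.

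Markers of bile duct and stellate cells also differed between these pools. The summed intensity of 13 cholangiocyte markers was 1453, 2143, 1690 and 3643 in the WT, MDR2-/-, GHR-/- and double knock-out pools, and that of 15 stellate cell and fibroblast markers was 6690, 9401, 8107 and 12058. Between the double knock-out and MDR2-/- pools 12 cholangiocyte markers passed the filter, 9 of them higher and 0 lower (7.11% and 3.88% of all genes). Differences over all 13 ran from -0.11 to 2.09. Between the MDR2-/- and WT pools 10 passed, so some passed here only through the double knock-out pool, where they were higher. Their place in the count supports nothing. Of the stellate cell and fibroblast markers 3 of 15 were higher and 1 lower, beside the same shares, with differences from -0.63 to 1.16. The part of these cells in the F3, Tfpi, Plat and Plau values was not tested.

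In counts, 0 of 19 coagulation members that passed the filter were higher and 1 (F11) was lower in the MDR2-/- than in the WT pool, and likewise 0 and 1 (F11) in the GHR-/- against the WT pool. In the double knock-out against the MDR2-/- pool 4 of 21 were higher (F3, Tfpi, Plau and Plat) and 2 lower (F9 and F11). Plau and Plat are in this count only because they passed the filter through the double knock-out pool, where they were high. With the filter at 329, which Plau and Plat do not reach, 2 were higher, F3 and Tfpi. Both lie above 100 in every pool but reach 329 only in the double knock-out pool, where they are high. The counts of higher members at 329 in this and the next comparisons thus support nothing. In the double knock-out against the GHR-/- pool the same 4 were higher, again 2 with the filter at 329, and F7 and F11 were lower. Over all genes, 6.05%, 4.22%, 7.11% and 9.92% were higher and 3.57%, 2.47%, 3.88% and 9.89% lower in these 4 comparisons. The median difference was -0.10, 0.04, -0.16 and -0.21 in the 4 comparisons, of which that of GHR-/- against WT turned below 0 with median centring and hepatocyte centring. Over all genes passing the filter the medians were -0.04, 0.10, 0.06 and -0.06. The member medians also include F13a1 and Plaur, which lie under the filter. Between the double knock-out and WT pools 5 were higher, 2 with the filter at 329, and 4 lower, against 13.7% and 7.57% of all genes, with a median of -0.24 against 0.01. Limma called Plat higher with MDR2 loss, a call kept with the mean of rows and lost in the other 6 alternatives, and 0 of 21 coagulation members with GHR loss, where 5 had an unadjusted p under 0.05.

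**Figure D5:**
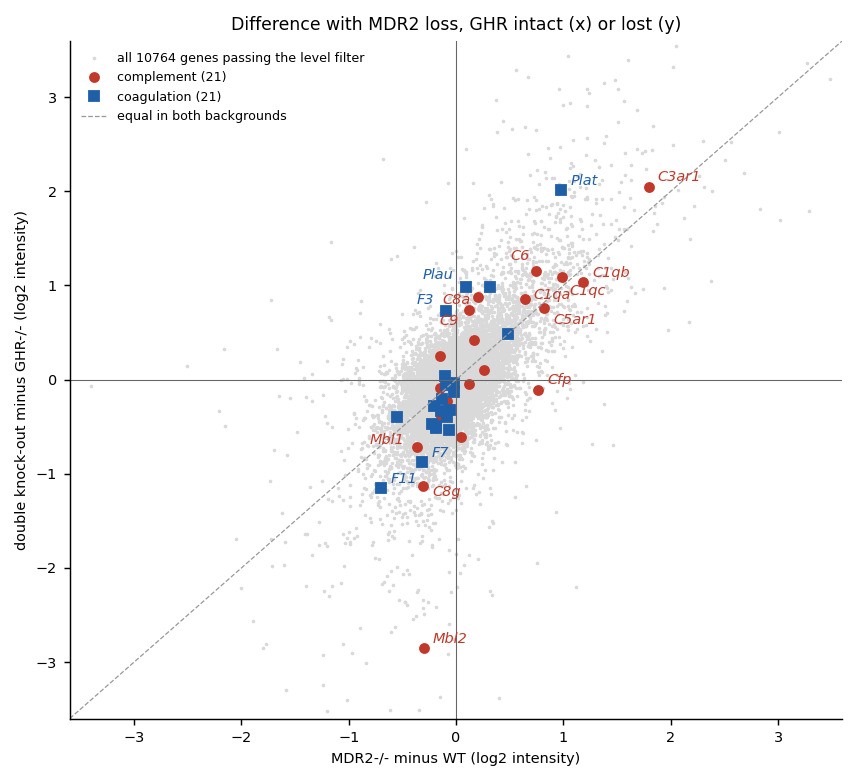
Difference in log2 intensity with MDR2 loss in the WT background (x axis) and in the GHR-/- background (y axis), with symbols as for GHR loss and 23 genes outside the axes. C3ar1, C1qa, C1qb, C1qc, C5ar1 and C6 lie high on both axes, F11 low on both, and Mbl2 low on the y axis alone.

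Departures from additivity of at least 1.5-fold were found in 6 of 21 complement and 4 of 21 coagulation members that passed the filter. In complement C8a (0.67) and C9 (0.62) lay above 0, their lower level with GHR loss being smaller in the MDR2-/- background. Mbl2 (-2.55), Cfp (-0.87), C8g (-0.82) and Masp2 (-0.65) lay below 0. In coagulation F3 and Tfpi lay above 0, as did Plat and Plau, which were under 100 in the other 3 pools, and no member lay below. Over all genes 5.28% lay above and 6.71% below.

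Other genes of these pathways were taken from fixed lists, which were written with earlier results of these data known. Of the further complement genes 30 had a row. In the MDR2-/- against the WT pool 4 of 23 passing the filter were higher and 0 lower (6.05% and 3.57% of all genes), and in the GHR-/- against the WT pool 3 of 22 were higher and 1 lower (4.22% and 2.47%). In the double knock-out against the MDR2-/- pool 4 of 25 were higher and 2 lower (7.11% and 3.88%), and against the GHR-/- pool 6 of 25 were higher and 4 lower (9.92% and 9.89%). C4a was 1093, 1141, 534 and 353 in the WT, MDR2-/-, GHR-/- and double knock-out pools, low in both pools without GHR, with the reservation on its likeness to C4b. Clu, clusterin, an inhibitor of the terminal complex, was 3484, 6461, 3151 and 6859, high in both pools without MDR2. Hc, the mouse gene of C5, ranged from 2576 to 3687. Itgb2, the beta chain shared by complement receptors CR3 and CR4 of myeloid cells, was 82, 223, 132 and 300. Their alpha chains Itgam, at 35, 65, 36 and 131, and Itgax, at 50, 80, 49 and 172, exceeded 100 in the double knock-out pool alone. Itgam and Itgax thus passed the filter only where they were high. The same holds for Itgb2 in MDR2-/- against WT and in GHR-/- against WT. It holds for C7 in MDR2-/- against WT and in the double knock-out against GHR-/-. The place of such genes in the counts of higher ones supports nothing. Vsig4, the complement receptor of Kupffer cells, was 666, 1578, 1075 and 1426. The genes of CD59, which blocks the membrane attack complex, differed in order. Cd59a was 2029, 2279, 3320 and 2640, highest in the GHR-/- pool, and Cd59b was 138, 133, 189 and 78, lowest in the double knock-out pool.

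Of the further coagulation genes 30 had a row as well. In the MDR2-/- against the WT pool 4 of 23 passing the filter were higher and 0 lower, and in the GHR-/- against the WT pool 2 of 23 were higher and 0 lower. In the double knock-out against the MDR2-/- pool 0 of 23 were higher and 3 lower, and against the GHR-/- pool 5 of 24 were higher and 4 lower. The shares over all genes are those given with the further complement genes. Fgl1, a fibrinogen-like protein of hepatocytes, was 3461, 3112, 3634 and 351 in the WT, MDR2-/-, GHR-/- and double knock-out pools. It was low in the double knock-out pool alone, 8.87-fold below the MDR2-/- pool. Tfpi2, an inhibitor related to Tfpi, was 1296, 970, 1073 and 556, and S100a10, the partner of annexin A2, was 4358, 4691, 3658 and 2549, both lowest in the same pool. Anxa2, a cell-surface cofactor of plasminogen activation, was 124, 521, 181 and 733, high in both pools without MDR2, and St14, matriptase, was 66, 195, 72 and 257. Pros1, protein S, was 739, 1164, 696 and 1207, also high in both pools without MDR2. Gas6, a relative of protein S, was 394, 759, 596 and 967, and F2r, a thrombin receptor, was 394, 526, 292 and 712. Plgrkt, a plasminogen receptor, was 77, 74, 117 and 98. St14 passed the filter with MDR2 loss only through the pools without MDR2, where it was high. Plgrkt passed it between the GHR-/- and WT pools only through the GHR-/- pool, where it was high. The place of both in the counts of higher genes supports nothing. Serpinc1, antithrombin, ranged from 6887 to 8074 and Serpind1, heparin cofactor II, from 6398 to 6735.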

How the data were processed

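RNA of 3 pooled livers per genotype was hybridised to 1 whole-transcript array each, 4 arrays in all. Per the submitters' processing notes, the deposited intensity values came from RMA in Affymetrix Expression Console 1.1. They are linear whole numbers from 6 to 22355, so log2 was taken first. For the probe sets no build was given in the sources used here. The table had 35556 rows, 21789 with 1 gene symbol by GEO's platform annotation, 1621 with several and 12146 with none. Of those with 1 symbol, 21698 matched the RefSeq gene table of GRCm38.p6 by gene identifier.

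Differences were taken between single arrays and have no replicate check. The number of arrays limits the precision. The limma 3.58.1 fit (R 4.3.3, lmFit and eBayes, additive GHR and MDR2 factors, 4.34 prior degrees of freedom, adjusted p under 0.05 called) took genes whose highest array was at or above 100, and was tested on simulated data. Marker lists (hepatocyte, macrophage, endothelial, cholangiocyte, stellate, neutrophil) gave summed intensities. All members are accounted for. Those at least 1.5-fold apart in a single-loss comparison are given for each pool, the rest by range, and other pathway genes by up to 4 of the largest differences past the count in each comparison. Hc, Serpinc1, Serpind1, Onecut1 and Apcs were named after their values were seen. Members, lists and rules were chosen with earlier results of these data known. Alternatives were no filter, a filter at intensity 329, a 2-fold threshold, cyclic loess, centring on hepatocyte markers or on the median, a mean over the rows of a gene, limma with trend and robust settings, and complement without C6 and C9 or without macrophage members.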

Additional observations from a re-analysis of the deposited data

How the results depend on the processing

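No paired analysis was possible because each genotype was 1 array, and leaving out a replicate was not possible for the same reason. The level filter does not enter the medians of the members, while the medians over all genes were taken over genes passing it. Among 49 differences of single members named above, 3 of 196 values under cyclic loess, median centring, hepatocyte centring and the mean of rows fell under 1.5-fold, all of them Masp2, and 0 reversed. Median centring shifted the all-gene median of the GHR-/- against WT comparison from 0.10 to -0.03, a shift of over 0.1.

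At 2-fold, complement members past the threshold numbered 2 in place of 7 (MDR2-/- against WT), 5 in place of 10 (double knock-out against MDR2-/-) and 6 in place of 12 (double knock-out against GHR-/-). Coagulation members numbered 0 in place of 1 in both comparisons of a single loss with WT, 3 in place of 6 (double knock-out against MDR2-/-), 2 in place of 6 (double knock-out against GHR-/-) and 4 in place of 9 (double knock-out against WT). Leaving out the macrophage members left 15 of complement. Past 1.5-fold were then 1 in place of 7 (MDR2-/- against WT) and 7 in place of 12 (double knock-out against GHR-/-). Against WT the double knock-out had 8 in place of 14. The complement median moved to -0.67 (double knock-out against MDR2-/-) and -0.74 (double knock-out against WT). Coagulation members in the MDR2-/- against WT comparison numbered 3 with no filter and 2 with the mean of rows, in place of 1, and 2 in place of 1 in the GHR-/- against WT comparison with median centring. Shares of all genes were taken at 1.5-fold under the main settings alone. Counts at 2-fold or under another filter or scaling thus have no share beside them. They show only how the number of members moved.

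The limma calls were less stable. For GHR loss 56 genes were called, 0 with no filter (1828 at an unadjusted p under 0.05), 32 with the filter at 329 and 17 with hepatocyte centring. For MDR2 loss 404 were called, 0 with no filter (2928 unadjusted), 69 with the filter at 329 and 18 with hepatocyte centring. Complement calls for GHR loss were 2, but 0 with no filter (10 unadjusted) and 1, C6, with hepatocyte centring. For MDR2 loss they were 5, but 0 with no filter (7 unadjusted), 1 with the filter at 329, 3 with cyclic loess, 3 with median centring and 0 with hepatocyte centring (8 unadjusted). Coagulation calls for MDR2 loss were 1, Plat, but 0 with no filter, the filter at 329, cyclic loess, median centring and hepatocyte centring, with 4 to 6 members at an unadjusted p under 0.05. They were 2, Plat and F11, with the mean of rows, and 1, F11 in place of Plat, with trend and robust settings. C8b was gained for GHR loss with the mean of rows and with trend and robust settings. The cause was not tested.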

Other observations

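Klkb1, plasma prekallikrein, a protease of the contact pathway, had a row that GEO's annotation also gives to Cyp4v3, so its value cannot be assigned to either gene. That row was 4290, 4260, 3595 and 3200 in the WT, MDR2-/-, GHR-/- and double knock-out pools. A row annotated to both C1rb and C1ra was 2957, 3196, 2159 and 2114 in the same order, and thus low in both pools without GHR. The row of C1ra alone was 453, 415, 338 and 261.

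There were 20 acute phase genes, liver genes induced in inflammation. In the MDR2-/- against the WT pool 5 were higher and 1 lower (6.05% and 3.57% of all genes). In the GHR-/- against the WT pool 0 were higher and 4 lower (4.22% and 2.47%). In the double knock-out 0 were higher and 8 lower against the MDR2-/- pool (7.11% and 3.88%). Against the GHR-/- pool 4 were higher and 5 lower there (9.92% and 9.89%). The list includes Fgl1, which was also counted with the further coagulation genes. Apcs, serum amyloid P, which binds C1q, was 1537, 1189, 1303 and 229 in the WT, MDR2-/-, GHR-/- and double knock-out pools, and so was low in the double knock-out pool alone, like Mbl2 and Fgl1. These 3 genes were set side by side after their values were seen.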
